A study of Homo sapiens with 32 samples.

Results

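The genes examined here encode the machinery that is assembled at small nuclear RNA (snRNA) promoters: the 5 subunits of the snRNA activating protein complex SNAPc (SNAPC1 to SNAPC5), the octamer-binding factor encoded by POU2F1, and the parts of the RNA polymerase III initiation factor TFIIIB (BRF1, BRF2, BDP1 and TBP). Described here are the counted windows, each 401 bp wide, with a centre no farther than 500 bp from an annotated start of these 10 genes (GENCODE release 44). This gave 25 windows of the 212358 in the count table, and 23 of them, at 9 of the 10 genes, passed the filter on low counts. Open chromatin was measured with ATAC-seq, which cuts and tags exposed DNA with a transposase. The cells were HEK293T, derived from human embryonic kidney and carrying the SV40 large T antigen, and all libraries come from 1 clone, HEK_CloneZD29. Its ZNF143, a zinc finger transcription factor, is fused to an inducible degron, so the control cells hold the tagged protein too. The compared groups were 8 control libraries, labelled DMSO although the treatment protocol speaks of untreated cells, and 8 libraries of cells collected after 30 minutes in 50 nM dTAGV-1, a compound that recruits a ubiquitin ligase to the tag. Both groups are replicates 9 to 16. ZNF143 protein was not analysed here, so the extent of its loss is unknown.

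At snRNA genes, SNAPc binds a proximal element close to the start and brings TBP to the promoter, while ZNF143 and the POU2F1 product bind a distal enhancer-like element and help SNAPc to bind. Promoters of this kind are read by RNA polymerase II or, where a TATA box is present, by RNA polymerase III with a TFIIIB made of BRF2, BDP1 and TBP. BRF1 takes the place of BRF2 at transfer RNA genes. The comparison therefore asks whether the genes for the partners of ZNF143 change in accessibility at their own starts soon after ZNF143 is targeted.

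Library totals ran from 2275856 to 13671039 counts. Replicates 11 and 12 were shallower and flatter in both groups. The top decile of windows took 31.0% of counts in control replicate 12, 37.8% in dTAGV-1 replicate 12 and 40.3% in dTAGV-1 replicate 11. Control replicate 11 was closer to the rest, at 44% against 46.3% to 47.3% in the remaining libraries. The labels do not say whether libraries came from separate cultures, so p-values measure the spread between these libraries, which may be technical. Of 8 genes known to be active in HEK293 cells, 7 had a window at or above the median control level of all promoter windows. LHX1 was the exception. A gene passed if any of its windows did, which makes passing easy. All 4 tested genes related to the examined ones, such as POU2F2, passed too, so this does not establish the cell type. Of 12 genes of blood, liver, muscle, endothelium and fibroblasts, 8 had no tested window, among them PTPRC, CD3E, ALB and APOA1.

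The start of SNAPC3 held the only 1 of the 23 tested windows that passed the test. SNAPC3 encodes a SNAPc subunit that contacts the proximal element of snRNA promoters. Its main window, on chromosome 9 from 15422541 to 15422941 in hg38, lay 7 bp past the first annotated start, in an untranslated region of the gene. It fell in dTAGV-1 to 54.9% of its control level. The other 22 tested windows passed the test in neither direction. Since ATAC-seq was done on bulk cells, fewer cells with an open site and less opening per cell cannot be told apart.

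2 sequences in this window are shown first, because the letters they share were later searched in all promoter windows. They were found by searching the window for ACTACA on both strands. Each is written 5′ to 3′ on the strand given, with the 12 bases that gave the searched pattern in capitals, so their match to it is fixed by how it was made. Both were read from hg38.
SNAPC3 site 1, minus strand, chr9:15422730-15422759: agaaACTACATTTCCCggcaggccatgggc
SNAPC3 site 2, plus strand, chr9:15422806-15422835: agcaACTACAACTTCCatcacgctctgcga
The middle of the match in site 1 lay 9 bp from the centre of the window and that in site 2 lay 75 bp from it, on opposite strands. Both matches lie between the first annotated start at 15422734 and the start of the canonical transcript at 15422876. They are thus downstream of the first start and upstream of the canonical one.

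The 150 bases before the first start of SNAPC3 held no match. They are shown beside the 100 bases before the starts of TBP and SNAPC1, a pair of genes that also have strongly accessible starts and whose windows did not pass the test.
SNAPC3, plus strand, chr9:15422584-15422733: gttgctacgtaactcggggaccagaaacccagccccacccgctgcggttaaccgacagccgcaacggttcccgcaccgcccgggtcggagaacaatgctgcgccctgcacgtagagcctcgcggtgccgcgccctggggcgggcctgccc
TBP, plus strand, chr6:170554202-170554301: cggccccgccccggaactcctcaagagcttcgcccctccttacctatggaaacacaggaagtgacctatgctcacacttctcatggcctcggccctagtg
SNAPC1, plus strand, chr14:61762320-61762419: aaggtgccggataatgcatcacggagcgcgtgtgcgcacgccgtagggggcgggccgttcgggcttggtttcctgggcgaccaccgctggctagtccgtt

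The main window of SNAPC3 measured from 4.72 to 6.06 log2 CPM in control, with a median of 5.86. In dTAGV-1 it measured from 4.04 to 5.14, with a median of 4.98. CPM are counts scaled to library size after TMM normalization, with a prior count of 2. The groups overlapped through 1 library: 7 of the 8 control libraries lay above every dTAGV-1 library, while control replicate 12, the flat library, lay at 4.72. In each group replicate 12 was the lowest. On the log2 scale dTAGV-1 minus control was -0.87 (SE 0.16, 95% interval -1.19 to -0.54). Adjusted over all tested windows by the method of Benjamini and Hochberg, the p of the edgeR quasi-likelihood fit was 0.00234. Without control replicate 12 the fold change was -0.95, with an edgeR adjusted p of 2.06e-07.

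That was 1 lower and 0 higher calls among the 23 tested windows (edgeR, adjusted p of 0.05). DESeq2 also called 1 lower and 0 higher. Over all 185040 tested windows 0.213% were called lower and 0.00108% higher, and among the 38119 tested promoter windows, those near the start of any gene, 0.561% were called lower and 0.00525% higher. At an unadjusted p below 0.05 there were 1 lower and 1 higher window among the 23, where 2.85% of all windows and 2.99% of promoter windows lay below that p in either direction. In 0 of the 23 windows did the groups not overlap, against 0.0713% of all windows with every dTAGV-1 library below control and 0.00324% with every one above. A single call among 23 windows, some of which overlap a neighbour, is too few to set against these shares. The median log2 fold change of the 23 windows was 0.00050, beside 0.011 over all tested promoter windows. By p-value the window of SNAPC3 stood at place 212 of the 395 windows called lower anywhere, and 239 of those fell by more.

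SNAPC3 has 2 further windows downstream, which overlap each other in part, and both were on the other side of 0. The second, from 15422985 to 15423385, was centred in a coding exon of the gene. It measured from 3.26 to 4.05 log2 CPM in control (median 3.73) and from 3.51 to 4.35 in dTAGV-1 (median 4.04), and the groups overlapped widely. Its log2 fold change was 0.25 (SE 0.14), and the edgeR adjusted p rounds to 1.00.

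The third window, from 15423314 to 15423714, was centred in an intron 372 bp past the nearest start. It measured from 2.03 to 2.45 log2 CPM in control (median 2.30) and from 2.06 to 3.08 in dTAGV-1 (median 2.82). Here 7 of the 8 dTAGV-1 libraries lay above every control library, and dTAGV-1 replicate 11 was the exception. Its log2 fold change was 0.51 (SE 0.15, 95% interval 0.21 to 0.81). The unadjusted p was 0.00120 and the edgeR adjusted p 0.375, so the window did not pass the test.

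The share of counts within the 3 SNAPC3 windows does not depend on how libraries are scaled. The first window held from 64.2% to 80.1% of them in control, with a median of 74.7%, and from 45.0% to 61.2% in dTAGV-1, with a median of 57.5%. Every control library lay above every dTAGV-1 library. This share was chosen after the single windows were seen and is given as a description. The lowest control value, 64.2%, again belonged to replicate 12, as did the lowest dTAGV-1 value, 45.0%.

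**Figure D1:**
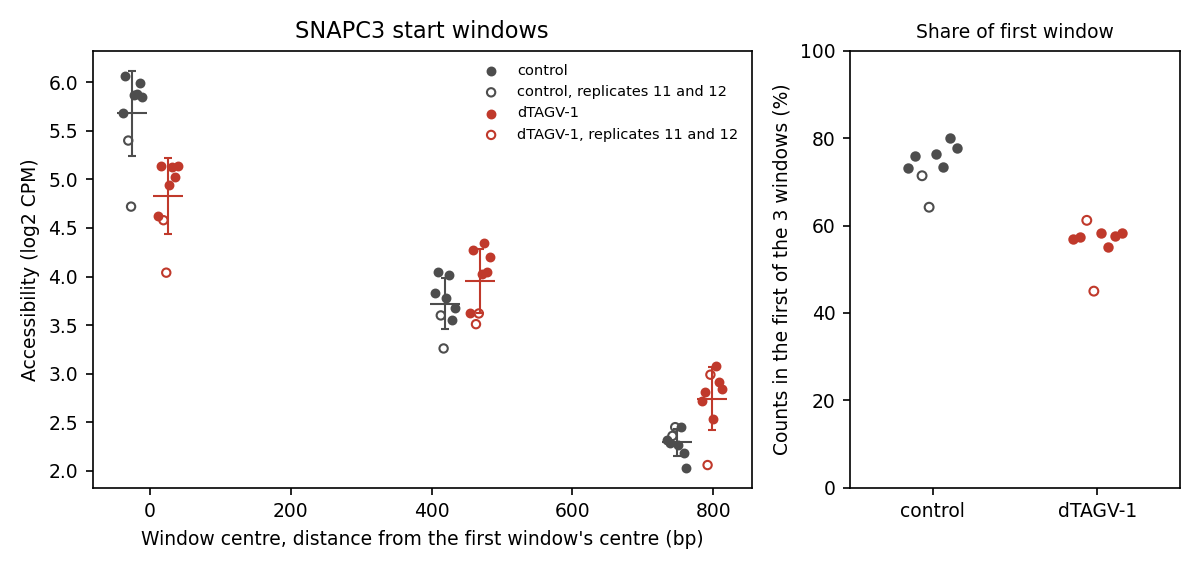
Accessibility at the 3 start windows of SNAPC3. Left, log2 CPM per library (points) with the mean and SD (bars, n = 8 in each group) against the distance of the window centre from the centre of the first window in bp. Right, the percentage of the counts in the 3 windows that fell in the first. Open points are replicates 11 and 12. The first window is lower in dTAGV-1, with a median of 4.98 against 5.86, and the share of the first window does not overlap between the groups.

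The pattern marked in the sites above is ACTACANNTNCC, in which N is any base. It holds the letters that the 2 SNAPC3 sites share, and it was written after the fall of that window was known. The longer element bound by ZNF143 begins with letters like ACTACA, and this likeness is no result of the search. The other end of that element is a core of 10 letters that overlaps the last letters of the pattern. The pattern and the core were both searched on both strands over each whole window. Among the 40300 promoter windows, 1.97% held the pattern and 1.39% held the core. Among the 214 of them called lower, 63.1% held the pattern, SNAPC3 included, and 18.2% held the core. The core was in 0 of the 25 windows of the 10 genes, and the pattern in 1 of 25, the SNAPC3 main window.

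A second match in the same window was rare. Only 0.268% of promoter windows held 2 or more matches, against 30 of the 214 lower ones. In the 104 tested windows with 2 or more, the median log2 fold change was -0.37 (quartiles -0.65 and -0.23) and 97.1% were negative. With 1 match, 653 windows had a median of -0.25 and 85.8% were negative, and with none, 37362 had a median of 0.013 and 45.3% were negative. The share called lower was 28.8%, 16.1% and 0.211% in the same order. SNAPC3, at -0.87, had the 11th lowest fold change of the 104. These windows share libraries and the pattern came from 1 of them, so the shares are a description.

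**Figure D2:**
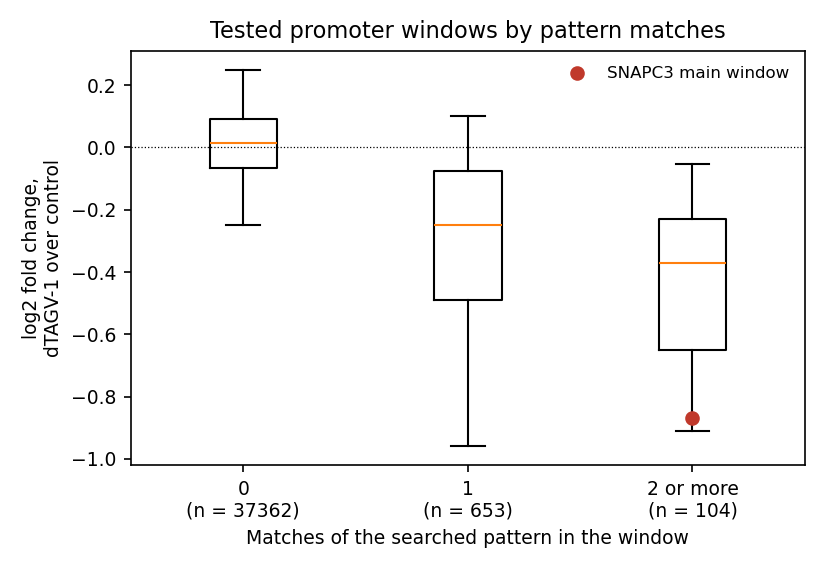
Log2 fold change of tested promoter windows by the number of matches of the searched pattern (boxes are quartiles with the median, whiskers run from the 5th to the 95th percentile, n is the number of windows). The median goes from 0.013 with no match to -0.37 with 2 or more, and the SNAPC3 main window (point) lies at -0.87, between the lower quartile of -0.65 and the end of the whisker at -0.91.

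The octamer ATGCAAAT, the site of the POU2F1 product, was in none of the 25 windows and in 1.34% of all promoter windows. The letters TATAAA were in 2 of the 25, the intronic SNAPC3 window and the upstream TBP window, and in 8.63% of all promoter windows. A missing match says only that these letters were not within these windows.

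No window of the other SNAPc genes passed the test. SNAPC4 encodes the largest subunit, which binds DNA through Myb repeats. Its window on chromosome 9 from 136400084 to 136400484, 108 bp upstream of a start, measured from 2.55 to 4.68 log2 CPM in control (median 4.40) and from 3.83 to 4.71 in dTAGV-1 (median 4.35). The value of 2.55 was control replicate 12 alone, and the next control library lay at 4.33. The groups otherwise overlapped, with a log2 fold change of 0.039 (95% interval -0.28 to 0.36).

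SNAPC1 encodes a subunit of the core that binds TBP. Its window on chromosome 14 from 61762137 to 61762537 measured from 4.45 to 5.40 log2 CPM in control (median 5.25) and from 4.56 to 5.32 in dTAGV-1 (median 5.15). The groups covered nearly the same range, replicate 12 was lowest in both, and the log2 fold change was -0.050 (95% interval -0.34 to 0.24).

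SNAPC5 encodes the smallest subunit. Its window on chromosome 15 from 66497651 to 66498051 measured from 4.35 to 5.21 log2 CPM in control (median 4.95) and from 4.60 to 5.01 in dTAGV-1 (median 4.88), so that the dTAGV-1 values lay inside the control range. Its log2 fold change was -0.062 (95% interval -0.34 to 0.21).

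SNAPC2 encodes a further subunit that is not part of the core complex. It had 4 windows on chromosome 19, of which the main one, from 7920141 to 7920541, lay 3 bp from a start. That window measured from 3.43 to 4.28 log2 CPM in control (median 3.74) and from 3.39 to 4.16 in dTAGV-1 (median 3.79), with a log2 fold change of -0.042 (95% interval -0.33 to 0.24). The other 3 windows had log2 fold changes of -0.19, 0.054 and 0.038, with standard errors of 0.18, 0.16 and 0.15.

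POU2F1 encodes Oct-1, which binds octamer sequences in snRNA and histone promoters. Its main window, on chromosome 1 from 167220445 to 167220845, also lies within 500 bp of a start of the divergent transcript POU2F1-DT. It measured from 4.27 to 5.45 log2 CPM in control (median 5.22) and from 4.54 to 5.27 in dTAGV-1 (median 5.16). Replicate 12 was lowest in both groups and the rest overlapped, with a log2 fold change of -0.062 (95% interval -0.36 to 0.23).

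An internal start of POU2F1 had the next largest fold change of these genes after SNAPC3, at a weak window. From 167329188 to 167329588 it held 3 to 19 counts per library. It measured from -0.31 to 2.12 log2 CPM in control (median 1.06) and from -0.040 to 0.75 in dTAGV-1 (median 0.30). The groups overlapped, with 5 control libraries above every dTAGV-1 library and 1 below. The difference was -0.64 on the log2 scale (SE 0.32, 95% interval -1.28 to 0.003), and the edgeR adjusted p rounds to 1.00. The remaining POU2F1 window, 344 bp past a start, had a fold change of -0.14 (SE 0.15).

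Among the TFIIIB genes, TBP encodes the TATA-binding protein shared by all 3 nuclear RNA polymerases. Its main window, on chromosome 6 from 170554059 to 170554459, was as strong as that of SNAPC3. It measured from 5.21 to 5.88 log2 CPM in control (median 5.73) and from 5.25 to 5.90 in dTAGV-1 (median 5.78), and the ranges all but coincided. Its log2 fold change was 0.00050 (95% interval -0.29 to 0.29), so that a fall as large as that at SNAPC3 lies outside the interval. The window 378 bp upstream had a fold change of -0.090 (SE 0.14).

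BRF1 encodes the TFIIB-related subunit used at transfer RNA genes and has the most annotated starts here, with 7 windows on chromosome 14. The main window, from 105300858 to 105301258, also lies near a start of PACS2, on the opposite strand. It measured from 4.55 to 5.24 log2 CPM in control (median 5.04) and from 4.49 to 5.23 in dTAGV-1 (median 5.04). Both groups had the same median, and the log2 fold change was -0.028 (95% interval -0.30 to 0.25). A window at a distant start, from 105248327 to 105248727, is shared with BTBD6 and had a fold change of 0.075 (SE 0.20). The other 5 windows had fold changes from -0.10 to 0.043.

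BRF2 encodes the related subunit used at snRNA-type promoters of RNA polymerase III. Its only window, on chromosome 8 from 37849720 to 37850120, measured from 3.32 to 4.21 log2 CPM in control (median 3.90) and from 3.48 to 4.08 in dTAGV-1 (median 4.00). The dTAGV-1 values lay inside the control range, with a log2 fold change of 0.029 (95% interval -0.24 to 0.30).

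Over the 8 main windows other than SNAPC3, fold changes lay between -0.062 and 0.039 and the bounds of their 95% intervals between -0.36 and 0.36. The intervals thus leave room for between 77.9% and 128% of the control level. The simulation described with the methods recovered 57.3% of windows changed by 1 on the log2 scale, so smaller changes at weak windows would often be missed. Its changed windows were drawn from all tested windows, whose median control level was 1.42 log2 CPM. The lowest main window, that of SNAPC2, lay at 3.79, so this share does not apply to the main windows. Of the 12 other tested windows outside SNAPC3, the 11 above a control level of 1 log2 CPM had fold changes from -0.19 to 0.075.

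**Figure D3:**
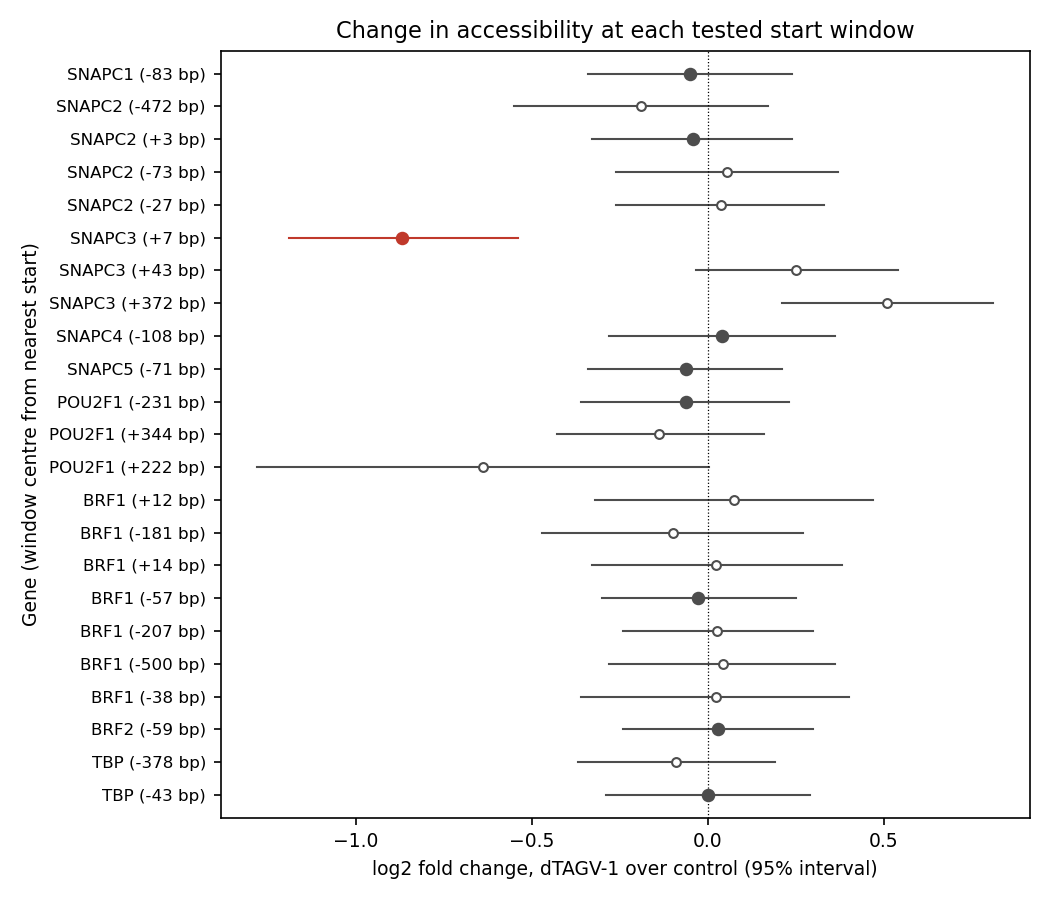
Log2 fold change, dTAGV-1 over control, of the 23 tested windows (x axis, points with 95% intervals) by gene and distance of the window centre from the nearest start (y axis). Filled points are main windows, and red marks the call at an adjusted p of 0.05. The first SNAPC3 window lies at -0.87, and the intervals of the other main windows all cross 0.

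BDP1, the third part of TFIIIB, could not be measured. Its 2 windows on chromosome 5, from 71455412 to 71455812 and from 71455698 to 71456098, overlap each other and held 0 counts in all 16 libraries. A count of 0 allows up to 3 counts, which is from 0.219 to 1.32 CPM depending on the library and covers counting error only. Only 1.33% of all windows held no count in any library. The authors' peak calling nonetheless gave these windows -log10 q values of 182 and 185, and the authors' summit list for replicates 1 to 8 has a summit in each, with scores of 63.1 and 23.4.

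The sequence of both BDP1 windows stands out. Every stretch of 50 bases in them, 352 in each, occurs again on another hg38 contig that is not one of the main chromosomes. No stretch of any other window was repeated on such a contig, with the exception of 1.42% of those in 1 BRF1 window. On the main chromosomes repeats were limited to 4.55% and 2.84% of the stretches of 2 BRF1 windows. The part of these copies in the counts of 0 was not tested, and no level of accessibility is given for BDP1.

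In the control libraries the main windows all lay above the median promoter window. Each was chosen as the window of its gene with the highest mean log2 CPM over all 16 libraries, so high levels are partly built in. All windows have the same width, so levels were not scaled by it. GC content differed among the main windows, from 55.4% at TBP to 73.6% at BRF1, and was not corrected for. The order of genes below is thus one of scaled counts. The main windows lay between the percentiles 70.8 and 97.4 of all tested promoter windows, whose median was 2.98 log2 CPM. SNAPC3 (5.68 ± 0.44, SD, n = 8) and TBP (5.68 ± 0.22) stood highest and differed by 0.0035 ± 0.28. TBP exceeded POU2F1 in 8 of 8 libraries, by 0.55 ± 0.24. POU2F1, SNAPC1, BRF1 and SNAPC5 followed at 5.13, 5.09, 5.01 and 4.89, with steps smaller than the SD of the difference between neighbours. SNAPC4 (4.20 ± 0.68) lay below SNAPC5 in 8 of 8 libraries, and it exceeded BRF2, at 3.87, by 0.34 ± 0.47. BRF2 and SNAPC2, at 3.87 and 3.79, differed by 0.080 ± 0.25.

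After the fall at SNAPC3, the mean of its main window in dTAGV-1 was 4.83 ± 0.39 log2 CPM, beside 4.84 ± 0.16 at SNAPC5 and 5.68 ± 0.24 at TBP (SD, n = 8). In control SNAPC3 stood beside TBP, and in dTAGV-1 it stood beside SNAPC5.

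**Figure D4:**
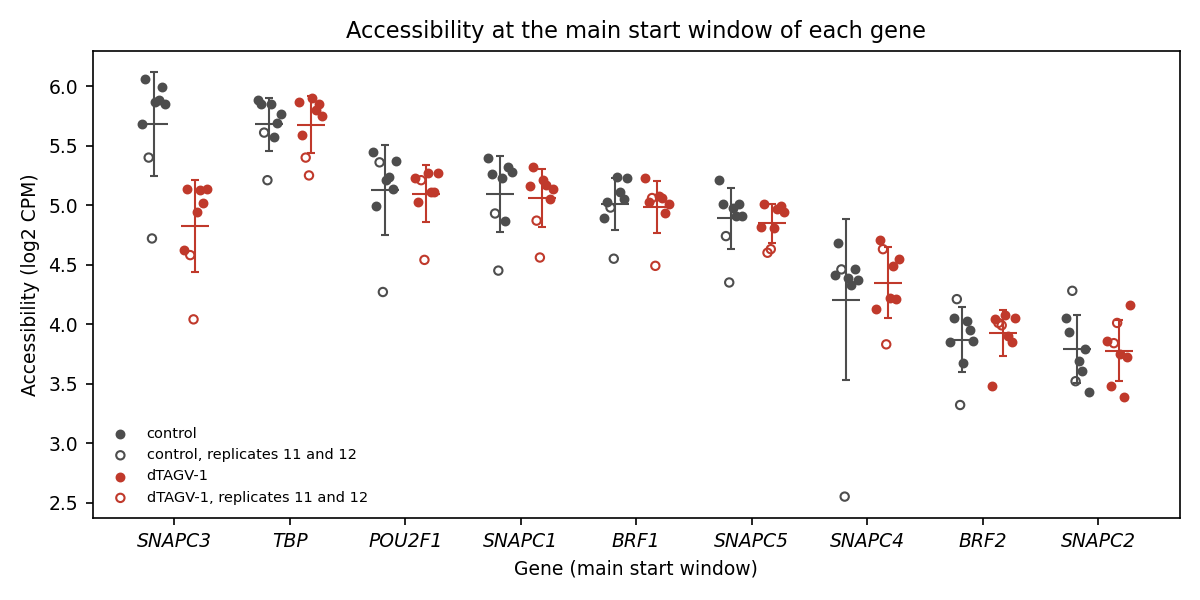
Accessibility (log2 CPM, y axis) at the main start window of the 9 measurable genes (x axis, ordered by control level). Points are libraries, bars the mean and SD of 8 libraries per group, and open points replicates 11 and 12. SNAPC3 is the only gene whose dTAGV-1 points lie mostly below the control points, and the low control point of SNAPC4, at 2.55, is replicate 12.

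Some further features of the windows are given as a description. The windows are peaks called by the authors and were chosen close to starts. Summits, q scores and nearby starts are therefore partly built in. Their GC content ran from 42.6% to 79.6% with a median of 64.1%. Of the 25 windows, 20 held a summit of the authors' list for replicates 1 to 8, the main windows of all measurable genes but SNAPC5 among them. The start of SNAPC3 carried a -log10 q of 1490 in the authors' peak calling, second to that of TBP, 1943, among these windows. Of the 25 windows, 5 also had a start of another gene within 500 bp. The same features were not counted over all promoter windows, so none of them is read as particular to these genes.

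The windows most like SNAPC3 over the 16 libraries were sought among 31699 windows at starts of other coding genes. They lay at SMIM13 (Pearson r = 0.984), CDC26 (r = 0.974) and ZNF354B (r = 0.971). Their log2 fold changes were -0.66, -0.66 and -0.64, with edgeR adjusted p of 0.0353, 0.0209 and 0.0596. The correlation was taken over both groups together, so windows that also fell in dTAGV-1 rank high by the way they were sought. All windows also share the depth and flatness of their libraries, so these values are a description.

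Other genes of the same pathway were counted from a list of 45, of which 43 had a tested window and which together gave 93. Of these windows 1 was called lower and 0 higher (edgeR, adjusted p of 0.05), and the median log2 fold change was 0.0010. An unadjusted p below 0.05 was found for 5 of the 93, beside the 2.99% of all promoter windows given above. The list held 7 genes of TFIIIA and TFIIIC, which recruit TFIIIB at ribosomal and transfer RNA genes, with 1 call in 14 windows and that same window alone at an unadjusted p below 0.05. The 14 genes of RNA polymerase III and its repressor MAF1 had 0 calls in 30 windows and 2 at an unadjusted p below 0.05. The 15 genes of Integrator, which cleaves the 3′ ends of snRNAs, had 0 in 30 windows and 1 at an unadjusted p below 0.05. The 4 genes of the little elongation complex, which acts on snRNA genes, had 0 calls in 7 windows and 0 at an unadjusted p below 0.05. The 5 related genes, such as POU2F2, had 0 in 12 windows and 1 at an unadjusted p below 0.05.

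The call was a window at GTF3C2, a TFIIIC subunit, on chromosome 2 from 27356746 to 27357146, shared with a start of GTF3C2-AS2. It measured from 4.09 to 5.04 log2 CPM in control (median 4.79) and from 4.07 to 4.28 in dTAGV-1 (median 4.15), with 3 dTAGV-1 libraries below every control library. It fell by 0.59 on the log2 scale (SE 0.13, edgeR adjusted p = 0.0265). The call was lost in 14 of 24 other fits, where the adjusted p lay between 0.0558 and 0.163 and the log2 fold change between -0.61 and -0.54. It was lost without a filter on low counts and in 13 of the 16 fits that left out 1 library, the exceptions being those without control replicate 12, dTAGV-1 replicate 11 or dTAGV-1 replicate 12. The pattern, the core, the octamer and TATAAA each had 0 matches in it.

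The pattern of the SNAPC3 sites occurred in 3 of the 93 windows. The window of INTS9, an Integrator subunit, which also lies near a start of HMBOX1, held 4 matches and had a log2 fold change of -0.54 (SE 0.16, edgeR adjusted p = 0.421). MAF1 held 2 and had -0.57 (SE 0.15, edgeR adjusted p = 0.202), while the neighbouring MAF1 window had 0.10. That of ICE1, of the little elongation complex, is shared with a start of an unnamed gene, held 1 and had -0.22. None of the 3 passed the test.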

How the data were processed

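ATAC-seq counts of 16 libraries, 8 control and 8 dTAGV-1, were used. The deposited table holds whole-number counts per window, not normalized, per the file headers, and 1 -log10 q per window from the authors' peak calling. The deposited summit list gives a -log10 score and no value per library. The labels name hg38, cutadapt 1.8.1, Bowtie2 2.4.4 and SAMtools 1.9, per the submitters' processing notes. The peak caller, read filter, Tn5 shift and counting tool are not given in the sources used here. All windows lay within hg38 chromosome ends. Columns left unused numbered 0.

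Counts were fitted over all windows in edgeR 4.0.16 (R 4.3.3) with filterByExpr, TMM scaling and the quasi-likelihood test, with no covariate, and Benjamini-Hochberg adjustment at 0.05. The filter on low counts left 185040 windows. Standard errors were taken as the fold change over the root of the F statistic. Alternatives were DESeq2 1.42.0, other scalings, no filter, a replicate block, the top-decile share as covariate and leaving out libraries. The 3 promoter windows of other genes that correlated best with the window of smallest p are named. Python 3.11.15 and pysam 0.24.0 were used for sequences. Each gene is described at its window of highest mean log2 CPM and at any called window, others by ranges. Promoter windows are those centred at most 500 bp from the start of any annotated transcript. The genes, lists and rules were chosen with earlier results of these data known. The main pattern searched was formed by script from the letters shared by the ACTACA sites of the SNAPC3 window, after its fall was known. Over 56 pairs within groups, chi-square per degree of freedom was 1.64 to 4.88, so all libraries were counted.

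On simulated data for dTAGV-1 against control, with 200 of 185040 windows changed, the test recovered 57.3% of those changed by 1 and 100% of those changed by 2 on the log2 scale, with 9 false calls. Simulated libraries differed in depth but not in flatness. The levels of the other markers of other cell types are not reported here.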

Additional observations from a re-analysis of the deposited data

Results flagged for a closer look

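The 26 groups of 8 values at the windows described singly were searched for a lone high or low library, from how large a part of the group's range separates it from the next value. Chance alone picks out about 1 in 20 such groups. The search picked out 6 values, and 5 of them belonged to replicate 12.

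Control replicate 12 measured 2.55 log2 CPM at SNAPC4 against 4.33 to 4.68 in the other control libraries, 4.27 at POU2F1 against 4.99 to 5.45, and 5.21 at TBP against 5.57 to 5.88. This library had the fewest counts of all, with 31.0% of them in the top decile of windows. In dTAGV-1, replicate 12 measured 4.54 at POU2F1 against 5.03 to 5.27 and 4.49 at BRF1 against 4.93 to 5.23. The part of flat signal in these values was not tested. Last, dTAGV-1 replicate 9 measured 3.48 at BRF2 against 3.85 to 4.08.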

How the results depend on the processing

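The fall at SNAPC3 kept its direction and its call in all 24 other fits, with log2 fold changes from -0.95 to -0.79 and edgeR or DESeq2 adjusted p from 2.15e-16 to 0.0171. The counts of 1 lower and 0 higher window among these genes were the same in 27 alternatives, including distances of 250 and 1000 bp and starts of protein-coding transcripts only. The windows called over the whole table varied more. Against 395 lower and 2 higher, the loess offset gave 681 and 5, the top-decile share as a covariate 757 and 10, and leaving out replicates 11 and 12 of both groups 767 and 14. DESeq2 called 4 higher. Leaving out 1 library gave 318 to 627 lower and 0 to 5 higher, and the 627 came without control replicate 12. With the replicate number as a block, 742 were lower and 11 higher. The main fit did not take the numbers as pairs. Deviations of same-numbered libraries correlated at 0.028 to 0.336, and 5 of the 8 pairs exceeded 0.1. In each group 5 of 8 libraries matched their own number best, so libraries may be partly paired by number, which the main fit ignores. At SNAPC3 the block gave a log2 fold change of -0.87 with SE 0.0816, against SE 0.164 in the main fit. Fold changes near 0 changed sign when 1 library was left out, with ranges of -0.11 to 0.0043 at SNAPC1, -0.11 to 0.036 at SNAPC2, -0.067 to 0.097 at SNAPC4, -0.076 to 0.025 at BRF1, -0.021 to 0.084 at BRF2 and -0.052 to 0.050 at TBP. TBP was -0.0021 with library totals alone, and SNAPC4 was -0.044 without replicates 11 and 12. The cause of these differences was not tested.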
